A study of Mus musculus with 24 samples.

Results

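Long-chain acyl-CoA dehydrogenase (LCAD, encoded by Acadl) is one of the mitochondrial enzymes that open the oxidation of long-chain fatty acids, the main fuel of the heart. The hearts compared here carried the genotype label Acadl KO / Acadvl wt (n = 4) and were set against hearts labelled Acadl wt / Acadvl wt, the wild type (n = 4). They were chosen by these genotype labels, which gives 8 of the 24 libraries of the series. All 8 came from male mice aged 14 weeks and fed chow, on a mixed background that was mostly C57BL/6N with some 129. Acadvl, the gene of very long-chain acyl-CoA dehydrogenase, was wild type in both groups. For a separate look at the same gene, 5 hearts labelled Acadl KO / Acadvl Het and 3 labelled Acadl Het / Acadvl Het were used, none of which is among the 8. The labels name neither the allele nor the breeding and are silent on whether each sample is its own mouse, so a p-value measures the spread between these samples, which may be technical. Messenger RNA was captured by its polyA tail and sequenced, and total counts ran from 39547554 to 41767745 in the 4 hearts labelled Acadl KO and from 38677364 to 51743114 in the 4 wild-type hearts. Levels are CPM, the counts per 1000000 reads assigned to genes with TMM scaling, given for replicates 1 to 4 in that order. A log2 change is the hearts labelled Acadl KO minus wild type, and a gene is called at an adjusted p under 0.05 in edgeR's quasi-likelihood test with Benjamini-Hochberg adjustment over all genes.

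When long-chain fatty acids cannot be burnt fully, acyl intermediates build up and the heart leans on other fuels. Cells answer many kinds of mitochondrial or amino acid stress through the integrated stress response: kinases phosphorylate the translation factor eIF2-alpha, general protein synthesis slows, and the mRNA of the transcription factor ATF4 is translated more. ATF4 then switches on genes that make, import and charge amino acids onto tRNA. The series title names this response and uncharged tRNA, and the comparison asks which arms of the response, and which fuel and contractile genes, differed in hearts labelled Acadl KO.

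The Acadl reads went against the label. Acadl (chromosome 1, 66830839 to 66863309, mm10) had 1923, 2099.5, 1856 and 1697 CPM in the hearts labelled Acadl KO and 1412, 1324, 1369 and 1325 CPM in wild type, so all 4 labelled hearts stood above all 4 wild-type hearts (log2 change 0.47, SE 0.07, adjusted p = 1.82e-05). Acadl was also higher in the 5 hearts labelled Acadl KO / Acadvl Het, at 1827 to 1933 CPM. The 3 hearts labelled Acadl Het / Acadvl Het had 1438 to 1568 CPM (log2 change 0.31, SE 0.07, adjusted p = 0.00113, edgeR). A count per gene sums all of its exons, so the exons that were read are not known. Every direction below therefore rests on the label, and the group is called the hearts labelled Acadl KO. Acadvl was also higher, at 2222, 2429, 1915 and 1894 CPM against 1588, 1549.6, 1577 and 1592 CPM in wild type (log2 change 0.42, SE 0.12, adjusted p = 0.00756).

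The tissue label held: the ventricular cardiomyocyte markers summed to 81091, 100824, 86570.3 and 83609.8 CPM in the hearts labelled Acadl KO and to 83029 to 91390.3 CPM in wild type. Liver RNA was present in 2 of the 4 labelled hearts. Alb, the serum albumin gene of hepatocytes, had 0.107, 61.7, 13.6 and 0.213 CPM in the hearts labelled Acadl KO and 1.45, 0.0669, 0.581 and 3.05 CPM in wild type, so replicates 2 and 3 of the labelled hearts stand apart. The 25 hepatocyte markers summed to 66.3, 258, 123 and 60.4 CPM in the hearts labelled Acadl KO and 55.5 to 78.03 CPM in wild type. Between 6 and 8 of the 25 had no read in replicates 1 and 4 of the labelled hearts and 0 of them were without reads in replicates 2 and 3, while 0 to 8 had none in wild type. edgeR called 2 of these markers (Apoa1 and Mup3), and 0 without replicates 2 and 3, so list counts below are also given without these 2 libraries where they change. RNA was isolated in 2 batches: replicates 1 to 3 of the labelled hearts and replicates 1 and 2 of wild type came from batch 2, replicate 4 and wild-type replicates 3 and 4 from batch 1. Batch is a term in the fit.

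Of 15804 genes tested, 5874 were called, 37.2% of them, with 3095 (19.6%) higher and 2779 (17.6%) lower in the hearts labelled Acadl KO. The median log2 change over all genes was -0.017. In 5659 genes (35.8%) the 4 hearts of the one group did not overlap the 4 of the other. Without replicates 2 and 3 of the labelled hearts, 4243 of 15985 genes (26.5%) were called, 2393 higher and 1850 lower. Within batch 2 (3 against 2 hearts) 4511 genes (28.6%) were called, and within batch 1 (1 against 2 hearts, the spread coming from all genotypes) 86 genes (0.534%). The counts below are read against these shares. In tissue RNA, fewer cells of a type and less RNA per cell cannot be told apart.

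The stress transcription factors rose together. Of the list, 6 of 8 members tested rose and 0 fell, with a median log2 change of 1.08; without replicates 2 and 3, 6 rose and 0 fell. Atf4, the hub of the response, had 381, 267, 344 and 144 CPM in the hearts labelled Acadl KO and 79.1, 66.3, 66.4 and 64.2 CPM in wild type (log2 change 1.95, SE 0.20, adjusted p = 1.15e-06). Replicate 4 had the lowest Atf4 of the labelled hearts and still lay above each wild-type heart. Atf3, a partner of ATF4 that is induced by it, had 95.1, 49.4, 178 and 14.3 CPM in the hearts labelled Acadl KO and 18.02, 8.86, 4.68 and 5.404 CPM in wild type (log2 change 3.08, SE 0.55, adjusted p = 0.000279). Here the groups overlapped, since replicate 4 lay below wild-type replicate 1. Ddit3, which encodes CHOP, a factor tied to cell death under prolonged stress, had 29.9, 20.1, 43.9 and 23.9 CPM in the labelled hearts and 12.3, 10.4, 11.1 and 13.1 CPM in wild type (log2 change 1.37, SE 0.25, adjusted p = 0.000281). Atf5, which is linked to the mitochondrial unfolded protein response, rose by a log2 of 1.32, Cebpg, a dimer partner of ATF4, by 0.83 and Jdp2 by 0.84. Cebpb and Nupr1 were not called.

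Upstream of these factors lie the kinases that phosphorylate eIF2-alpha. Of these 4 kinases, Eif2ak2 (PKR, the sensor of double-stranded RNA) changed by a log2 of -0.59, and Eif2ak1, Eif2ak3 and Eif2ak4 were not called. The 2 regulatory subunits that bring the phosphatase back to eIF2-alpha both rose. Ppp1r15a, the inducible one, had 161, 131, 144 and 77.9 CPM in the labelled hearts and 62.9, 49.4, 50.8 and 56.6 CPM in wild type (log2 change 1.19, SE 0.19, adjusted p = 9.66e-05), and Ppp1r15b, the constitutive one, rose by 0.71. RNA levels do not report kinase activity or phosphorylation.

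Among the feedback and signalling targets of ATF4, 6 of 10 members tested rose and 0 fell (median log2 change 0.55; without replicates 2 and 3, 5 rose and 0 fell). Trib3, a pseudokinase that binds ATF4 and dampens it, had 94.8, 25.2, 124 and 18.1 CPM in the hearts labelled Acadl KO and 5.47, 4.15, 4.96 and 6.52 CPM in wild type (log2 change 3.46, SE 0.55, adjusted p = 9.92e-05). Replicates 1 and 3 were several times above replicates 2 and 4. Chac1, which breaks down glutathione, showed the same order, with 86.4, 28.2, 132 and 24.7 CPM against 13.3, 11.2, 7.18 and 6.46 CPM in wild type (log2 change 2.70, SE 0.48, adjusted p = 0.000263). Sesn2, a brake on the growth kinase complex mTORC1, had 31.4, 10.9, 38.6 and 6.94 CPM in the labelled hearts and 3.36, 4.06, 4.37 and 4.12 CPM in wild type (log2 change 2.29, SE 0.41, adjusted p = 0.000271). The groups did not overlap for any of these 3 genes. Herpud1 rose by 1.44 and Vldlr, the VLDL receptor, by 0.43, while Ddit4, Stc2, Ndrg1 and Pmaip1 were not called.

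Of the secreted stress hormones 3 of 4 members tested rose and 0 fell, also without replicates 2 and 3, and 1 was not called. The list summed to 52.6, 30.7, 62.6 and 15.2 CPM in the labelled hearts and 5.61 to 6.13 CPM in wild type. The 3 that rose had low levels in wild type. Fgf21, a hormone that acts on fuel use in other organs, had 246, 93, 325 and 26 reads in the hearts labelled Acadl KO and 4, 2, 3 and 2 reads in wild type, which is 6.55, 2.46, 8.198 and 0.616 CPM against 0.0981, 0.0446, 0.0562 and 0.0383 CPM (log2 change 6.15, SE 1.15, adjusted p = 0.000322). With so few reads in wild type the size of this change is loosely set. Gdf15, a cytokine that acts on appetite through the brainstem, had 39.7, 24.7, 50.2 and 10.9 CPM in the labelled hearts and 2.06, 1.58, 1.74 and 1.49 CPM in wild type (log2 change 4.18, SE 0.63, adjusted p = 5.61e-05). Both hormones were above every wild-type heart in each labelled heart and lowest in replicate 4. Adm2, a vasodilator peptide, had 21, 10, 19 and 7 reads in the labelled hearts and 5, 2, 0 and 1 reads in wild type (log2 change 2.67, SE 0.70, adjusted p = 0.00365).

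**Figure D1:**
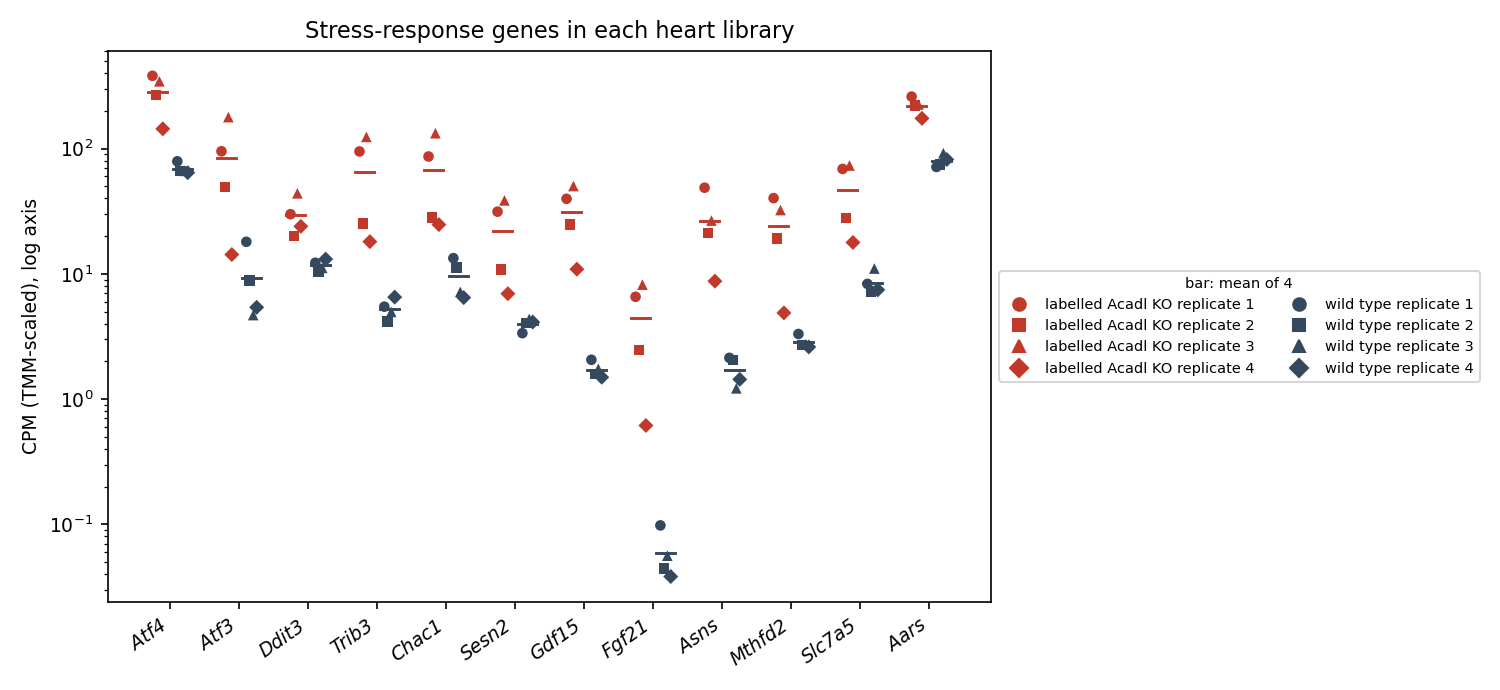
Levels of 12 stress-response genes in each heart library, in CPM on a log axis; red marks are the 4 hearts labelled Acadl KO and dark marks the 4 wild-type hearts, with 1 shape per replicate and a bar at each mean. In 11 of the 12 genes all red marks lie above all dark ones, Atf3 being the exception, and the diamond of replicate 4 is the lowest red mark in each gene but Ddit3.

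ATF4 binds DNA with C/EBP partners at a composite element whose core reads TGATGNAA. The promoter windows of 7 rising genes that hold these letters are shown, 1 or 2 for each role (factor, feedback, hormone, enzyme, synthetase, transporter), since these genes carry the stress response described above and below. The windows are RefSeq sequences (GRCm38.p6) from 250 bases before to 50 bases after the gene start, 5′ to 3′ on the strand of the gene. Capitals mark matches to TGATGNAA or to its reverse complement, both strands having been searched.
Atf3 (chr1:191183284-191183583, minus strand): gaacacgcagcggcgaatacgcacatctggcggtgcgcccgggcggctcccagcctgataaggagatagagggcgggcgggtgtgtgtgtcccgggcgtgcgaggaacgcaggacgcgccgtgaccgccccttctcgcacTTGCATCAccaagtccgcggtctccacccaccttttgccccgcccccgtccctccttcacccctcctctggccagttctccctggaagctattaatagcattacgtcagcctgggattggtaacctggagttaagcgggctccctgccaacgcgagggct
Trib3 (chr2:152344011-152344310, minus strand): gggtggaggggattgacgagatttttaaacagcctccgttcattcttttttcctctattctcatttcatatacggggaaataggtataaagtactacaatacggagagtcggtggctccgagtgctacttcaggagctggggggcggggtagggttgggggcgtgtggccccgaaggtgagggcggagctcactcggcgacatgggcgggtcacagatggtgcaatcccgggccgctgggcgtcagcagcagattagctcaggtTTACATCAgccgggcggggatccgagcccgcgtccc
Chac1 (chr2:119350992-119351291, plus strand): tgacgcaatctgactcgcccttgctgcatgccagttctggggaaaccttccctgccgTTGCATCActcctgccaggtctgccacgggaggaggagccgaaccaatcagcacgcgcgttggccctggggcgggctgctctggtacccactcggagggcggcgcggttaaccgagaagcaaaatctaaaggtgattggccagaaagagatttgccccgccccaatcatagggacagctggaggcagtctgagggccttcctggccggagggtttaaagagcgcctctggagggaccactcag
Fgf21 (chr7:45615441-45615740, minus strand): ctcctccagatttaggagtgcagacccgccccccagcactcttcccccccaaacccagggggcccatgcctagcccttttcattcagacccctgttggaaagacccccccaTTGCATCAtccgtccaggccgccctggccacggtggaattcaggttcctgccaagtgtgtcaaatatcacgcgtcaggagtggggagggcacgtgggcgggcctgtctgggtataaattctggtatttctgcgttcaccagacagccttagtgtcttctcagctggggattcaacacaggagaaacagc
Asns (chr6:7693160-7693459, minus strand): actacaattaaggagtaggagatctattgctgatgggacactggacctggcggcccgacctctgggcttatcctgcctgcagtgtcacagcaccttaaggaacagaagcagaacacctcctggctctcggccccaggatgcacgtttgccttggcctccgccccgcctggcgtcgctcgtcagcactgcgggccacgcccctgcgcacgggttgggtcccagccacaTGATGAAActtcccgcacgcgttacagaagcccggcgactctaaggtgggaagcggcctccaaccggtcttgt
Aars (chr8:111033592-111033891, plus strand): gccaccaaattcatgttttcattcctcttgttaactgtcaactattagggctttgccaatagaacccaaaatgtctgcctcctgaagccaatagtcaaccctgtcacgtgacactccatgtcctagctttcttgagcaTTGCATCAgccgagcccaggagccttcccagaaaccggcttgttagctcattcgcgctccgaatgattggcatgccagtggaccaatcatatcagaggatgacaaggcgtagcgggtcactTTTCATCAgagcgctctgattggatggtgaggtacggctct
Slc1a4 (chr11:20332664-20332963, minus strand): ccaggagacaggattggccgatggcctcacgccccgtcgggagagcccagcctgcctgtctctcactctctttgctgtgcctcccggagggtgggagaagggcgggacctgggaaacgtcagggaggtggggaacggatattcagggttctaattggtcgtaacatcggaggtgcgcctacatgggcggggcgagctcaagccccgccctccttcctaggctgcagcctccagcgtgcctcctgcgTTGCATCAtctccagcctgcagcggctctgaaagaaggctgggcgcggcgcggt
In Atf3, Chac1, Fgf21, Aars and Slc1a4 a match has C at the free position (TGATGCAA on the other strand), while the single matches in Asns and Trib3 have another base there. The matches begin 110 bases before the start in Atf3, 193 in Chac1, 139 in Fgf21, 23 in Asns, 112 in Aars and 4 in Slc1a4, and 15 bases after the start in Trib3; Aars has a second match 10 bases after its start.

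Over the 11668 tested genes that have a promoter entry, 340 (2.91%) hold TGATGNAA in at least 1 window. The share was 2.90% among all genes called higher and 2.98% among those called lower. Of the genes tested 416 (2.63%) rose and 577 (3.65%) fell by more than 1 on the log2 scale. Among the 298 with an entry that rose by more than 1 on the log2 scale, 20 (6.71%) hold it, against 19 of 414 (4.59%) that fell by more than 1. The stricter TGATGCAA, a case of the same motif, is in 0.806% of all entries, in 13 (4.36%) of the strong rises and in 3 (0.725%) of the strong falls. By role, 5 of 13 cytosolic synthetases with an entry hold TGATGNAA, 4 of 7 feedback targets and 3 of 18 amino acid transporters. So do 3 of 8 stress factors, among them Nupr1, which was not called. Among fuel lists, 2 of 11 uptake and activation genes, 2 of 14 PPAR and PGC-1 regulators and 1 of 16 PPAR-alpha targets hold TGATGNAA. The motif is in 0 of 13 serine and one-carbon enzymes, 0 of 14 mitochondrial synthetases and 0 of 7 transsulfuration enzymes. It is also in 0 of 10 regulators of mTORC1 and 0 of 5 eIF2-alpha kinases and phosphatase subunits. A match describes these letters and does not show binding.

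Genes that make asparagine, proline and one-carbon units rose in part. Asns, asparagine synthetase, had 48.7, 21.2, 26.6 and 8.74 CPM in the hearts labelled Acadl KO and 2.13, 2.05, 1.22 and 1.44 CPM in wild type (log2 change 3.83, SE 0.44, adjusted p = 3.52e-06). All 4 labelled hearts were above wild type, with replicate 1 highest. Of the asparagine, proline and transaminase enzymes 6 of 13 members tested rose and 1 fell (median log2 change 0.19). Of proline synthesis, Aldh18a1 (log2 change 1.75) and Pycr1 (1.79) rose. Glul, which makes glutamine, rose by 1.00 and Got1, the cytosolic aspartate transaminase, by 0.71, while Got2, its mitochondrial counterpart, was not called.

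In the serine and one-carbon list 7 of 16 members tested rose and 2 fell; without replicates 2 and 3, 6 rose and 1 fell. Mthfd2, the mitochondrial folate dehydrogenase that is normally low in adult tissue, had 40.2, 19.1, 32.3 and 4.88 CPM in the labelled hearts and 3.31, 2.699, 2.74 and 2.61 CPM in wild type (log2 change 2.78, SE 0.40, adjusted p = 3.62e-05). Replicate 4 held 259 CPM of the whole list, near the wild-type range of 230.5 to 245 CPM. Mthfd1l, its partner in formate release, rose by 1.39, the cytosolic Mthfd1 by 0.71 and Shmt1, which moves carbon from serine to folate, by 1.24. Psat1 (1.13) and Phgdh (1.08) of serine synthesis rose as well, though Psat1 in replicate 4 lay within wild type and its change within batch 1 was -0.24. The call of Phgdh was lost without replicate 3 of the labelled hearts. Psph, the last step to serine, changed by -0.50, a call lost without replicate 1 of the labelled hearts or replicate 1 or 2 of wild type. Cth, which makes cysteine from cystathionine, rose by 2.11 (SE 0.45, adjusted p = 0.00126).

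Aminoacyl-tRNA synthetases, which load each amino acid onto its tRNA, rose in the cytosolic set: 17 of 21 members tested rose and 0 fell, with a median log2 change of 0.60 (without replicates 2 and 3, 16 rose and 0 fell). Aars, for alanine, had 259.9, 219.8, 225 and 174 CPM in the hearts labelled Acadl KO and 71.3, 74.8, 91.7 and 81.8 CPM in wild type (log2 change 1.41, SE 0.12, adjusted p = 1.39e-07). The next largest rises were those for tyrosine (Yars, 1.38), cysteine (Cars, 1.26), isoleucine (Iars, 1.15) and threonine (Tars, 1.06), and the smallest called ones were Hars (0.28) and Dars (0.26). The Dars call was lost without replicates 2 and 3 of the labelled hearts (adjusted p = 0.0989). The synthetases for lysine (Kars), glutamine (Qars) and tryptophan (Wars), and Tarsl2, were not called, with log2 changes between -0.09 and 0.12. The list summed to 2851, 2325, 2446 and 1924 CPM in the labelled hearts and 1361 to 1498 CPM in wild type, without overlap. Of the mitochondrial synthetases 6 of 17 members tested rose and 1 fell (median 0.15; without replicates 2 and 3, 5 rose and 0 fell), Rars2 having the largest rise (0.57). Their sum, 856, 864, 941 and 970.1 CPM in the labelled hearts, overlapped wild type at 837 to 966 CPM.

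Amino acid transporters rose more often than they fell: 8 of 25 members tested rose and 3 fell, against 19.6% of all genes higher and 17.6% lower. The share that fell was thus below that of all genes. Without replicates 2 and 3, 8 rose and 1 fell. Slc7a5, which carries leucine and other large neutral amino acids, had 68.8, 27.98, 73.2 and 17.8 CPM in the labelled hearts and 8.31, 7.25, 11.02 and 7.45 CPM in wild type (log2 change 2.34, SE 0.35, adjusted p = 5.18e-05), with replicates 1 and 3 highest. Its heavy chain Slc3a2 rose by 1.60, the neutral amino acid exchanger Slc1a4 by 2.02, and the glutamine carriers Slc38a3 and Slc38a2 by 1.36 and 1.23. The 3 that fell were the cationic carrier Slc7a2 (-0.49) and the lysosomal Slc38a9 (-0.48) and Slc36a1 (-0.43). The Slc7a2 call was lost without any 1 of 5 libraries and the Slc36a1 call without replicate 1 or 2 of the labelled hearts or replicate 2 of wild type. Of the regulators of mTORC1 other than Sesn2, Fnip1 rose by 1.09 and its partner Flcn, which acts on this complex at the lysosome, by 0.48; Fnip2 rose too. Ddit4l, an inhibitor of the complex, changed by -1.66 (adjusted p = 0.0652 without replicates 2 and 3), and Tsc1 and Tsc2 were not called.

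The oxidant-defence programme of NRF2 was the next group. Nfe2l2, which encodes NRF2, and its inhibitor Keap1 were not called, and Bach1, a repressor at the same DNA sites, rose by 0.59. Of the NRF2 targets 14 of 25 members tested rose and 1 fell (median log2 change 0.54; without replicates 2 and 3, 13 rose and 0 fell). Srxn1, which repairs over-oxidised peroxiredoxins, had 393, 252, 177 and 118 CPM in the hearts labelled Acadl KO and 43.3, 33.4, 52.8 and 36.1 CPM in wild type (log2 change 2.41, SE 0.35, adjusted p = 3.67e-05). Txnrd1, thioredoxin reductase, had 308, 248, 196 and 174 CPM against 75.7, 74.04, 102 and 79.9 CPM in wild type (log2 change 1.48, SE 0.21, adjusted p = 2.8e-05). Neither gene overlapped between groups, and in both replicate 1 was highest and replicate 4 lowest. Hmox1, which breaks down heme, had 193, 209, 208 and 93.1 CPM in the labelled hearts and 36.4, 19.6, 46.7 and 24.1 CPM in wild type (log2 change 2.60, SE 0.59, adjusted p = 0.00209); replicates 1 to 3 were close together and replicate 4 was under them. Further rises were in Osgin1 (2.02), the ferritin light chain Ftl1 (1.42), Nqo1 (0.80) and the 2 subunits of glutamate-cysteine ligase, Gclm (1.01) and Gclc (0.95). Cbr1 changed by -0.32, a call lost without replicate 1 or 2 of the labelled hearts or replicate 1 of wild type. In the pentose phosphate pathway, which feeds NADPH to these enzymes, Pgd rose by 0.94 and Tkt by 0.74.

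Genes that build ribosomes rose. In the nucleolar assembly list 26 of 29 members tested rose and 0 fell (median log2 change 0.75), and without replicates 2 and 3, 25 rose and 0 fell. Rrp12, needed to export ribosomal subunits, had 183, 209.8, 146 and 137 CPM in the labelled hearts and 51.02, 47.9, 70.7 and 50.4 CPM in wild type (log2 change 1.60, SE 0.20, adjusted p = 7.57e-06). Nop58, a core protein of the box C/D particles that modify ribosomal RNA, had 48.3, 44.00, 43.7 and 28.01 CPM against 21.3, 19.4, 18.9 and 17.1 CPM in wild type (log2 change 1.05, SE 0.14, adjusted p = 1.18e-05). Gnl3 rose by 1.68, Nop2 by 1.20 and the helicase Ddx21 by 1.04; Npm3, Dkc1 and Polr1a were not called. Myc, a transcription factor known to drive such genes, rose by 2.24, with 21.2 to 78.7 CPM in the labelled hearts and 9.21 to 11.96 CPM in wild type.

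The ribosomal proteins themselves moved by small amounts. For the cytosolic ribosomal proteins 22 of 40 members tested rose and 0 fell, but the median was 0.21 on the log2 scale, the largest change was 0.43 (Rps28), and without replicates 2 and 3 the number was 6. Replicate 4, at 7894 CPM for the list, lay within the wild-type range of 7213 to 8005 CPM, and the other 3 labelled hearts lay above it. Among the translation factors 19 of 32 members tested rose and 2 fell (without replicates 2 and 3, 13 rose and 0 fell). Eif4a1, the helicase that opens mRNA for scanning, had 388, 445, 350.3 and 334 CPM in the labelled hearts and 181, 153, 193 and 168 CPM in wild type (log2 change 1.12, SE 0.11, adjusted p = 3.36e-07). Eif3a rose by 0.91 and Eif2b4, a subunit of the exchange factor that phosphorylated eIF2 blocks, by 0.82. Eif4ebp2, a repressor of cap-dependent initiation, changed by -0.29; its call was lost without replicate 2 of either group.

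Genes of mitochondrial protein import rose. Of the translocase and co-chaperone genes 15 of 21 members tested rose and 0 fell (median log2 change 0.41; without replicates 2 and 3, 12 rose and 0 fell). Timm10, a chaperone of the space between the membranes, had 102, 114, 82.2 and 82.97 CPM in the hearts labelled Acadl KO and 40.8, 33.8, 44.6 and 39.5 CPM in wild type (log2 change 1.26, SE 0.13, adjusted p = 6.86e-07). The groups were far apart and replicate 4 was not set off from replicate 3. Tomm40, the pore of the outer membrane, rose by 0.81, the small subunit Tomm5 by 0.91, and Grpel2, a nucleotide exchange factor for the matrix chaperone, by 1.43. That chaperone, Hspa9, rose by 0.53, Hspe1 by 0.76 and the protease subunit Afg3l2 by 0.83. In the mitochondrial chaperone and protease list 7 of 16 rose and 0 fell (6 and 0 without replicates 2 and 3), and Clpp, Yme1l1 and Oma1 were among those not called. Mitochondrial ribosomal proteins rose in 18 of 33 and fell in 1 (14 and 0 without replicates 2 and 3), led by Mrps2 (1.04) and Mrps18b (0.99). Of the endoplasmic reticulum chaperones 2 of 20 members tested rose and 5 fell (median -0.09; without replicates 2 and 3, 1 rose and 2 fell), against 17.6% of all genes lower, and Hspa5, the chaperone BiP, was not called.

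Genes under the PPAR and PGC-1 regulators, which set the heart's fuel use, also rose. Of the regulators themselves 13 of 16 members tested rose and 0 fell (median log2 change 0.53; without replicates 2 and 3, 11 rose and 0 fell). Ppargc1a, the coactivator PGC-1-alpha, had 581, 623, 268 and 255 CPM in the hearts labelled Acadl KO and 149, 132, 142 and 139 CPM in wild type (log2 change 1.49, SE 0.39, adjusted p = 0.00567). Replicates 1 and 2 were over 2-fold above replicates 3 and 4, an order unlike that of Trib3, in which replicates 1 and 3 were high. Pparg rose by 1.04, Ppara, the main fatty acid receptor of the heart, by 0.70 and Esrra by 0.83.

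Of the PPAR-alpha targets 17 of 24 members tested rose and 0 fell (median log2 change 0.67; without replicates 2 and 3, 15 rose and 0 fell). Pdk4, which blocks pyruvate entry to the citric acid cycle, had the largest gain in CPM of all called genes, at 10432, 10688, 8635 and 7047 CPM in the labelled hearts and 5385, 4870.4, 4702 and 3843 CPM in wild type (log2 change 0.95, SE 0.17, adjusted p = 0.000282). Fabp3, the fatty acid carrier of heart cytosol, had 4604, 5117, 3792 and 4114 CPM against 2619.8, 2462, 2691 and 2666 CPM in wild type (log2 change 0.75, SE 0.08, adjusted p = 1.31e-06). Both were without overlap. Ehhadh, an enzyme of peroxisomal oxidation, had 129, 153, 125 and 131 CPM in the labelled hearts and 38.4, 43.1, 40.8 and 33.7 CPM in wild type (log2 change 1.79, SE 0.16, adjusted p = 1.8e-07), an even rise in all 4. Acot1, a thioesterase that frees fatty acids from CoA, had 498, 467, 338 and 396 CPM against 128, 117, 158 and 155 CPM in wild type (log2 change 1.64, SE 0.15, adjusted p = 2.88e-07), and its relative Acot2 rose by 1.48. Reads of such close copies can be shared between them. Cyp4a14 was called at 3.62, but its reads, 1, 646, 147 and 82 in the labelled hearts and 17, 0, 27 and 87 in wild type, were most numerous in the 2 liver-bearing hearts, and without replicates 2 and 3 its log2 change was 0.56 (adjusted p = 0.834).

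Lipid storage rose with uptake. In the lipid droplet list 9 of 16 members tested rose and 0 fell (median log2 change 0.56). Plin5, which ties droplets to mitochondria in oxidative muscle, had 761, 961, 560.2 and 709 CPM in the hearts labelled Acadl KO and 233, 239, 294 and 265 CPM in wild type (log2 change 1.52, SE 0.15, adjusted p = 4.65e-07). Plin2, another droplet coat protein, rose by 1.58 and the lipase Pnpla2 by 0.59. The uptake gene Cd36 rose by 0.49, and of the uptake and activation list 8 of 15 rose and 0 fell. Fabp4 and Gpihbp1 in that list are expressed mainly by vessel cells; 0 of 7 endothelial markers were called, and their sum was 1222, 1285, 1016 and 1412 CPM in the labelled hearts and 1129 to 1300.2 CPM in wild type.

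Along the oxidation pathway the rises thinned out. Of the carnitine shuttle 5 of 8 rose (4 without replicates 2 and 3), with Cpt1b, the gate for entry of long-chain acyl groups, at 0.66 and Slc25a20, the exchanger of the inner membrane, at 0.64. Of the later steps 4 of 12 rose (3 without replicates 2 and 3), with Etfdh, which passes the electrons on, at 0.44 and Hadha, of the trifunctional protein, at 0.33. In the acyl-CoA dehydrogenase list 2 of 12 rose and 4 fell, against 17.6% of all genes lower. Without replicates 2 and 3, 2 rose and 3 fell. Acadm and Acads were not called and Acad12 changed by -0.61. For nuclear-encoded oxidative phosphorylation, 2 of 30 genes rose, Ndufs7 by 0.25 and Cycs by 0.28, against 19.6% of all genes; without replicates 2 and 3 it was 0 of 30. The Ndufs7 call was also lost without any 1 of 6 libraries. Their summed level was 35250.5, 36424, 32650.2 and 32526 CPM in the hearts labelled Acadl KO and 31973 to 33221 CPM in wild type, which overlap. In the citric acid cycle 7 of 20 rose and 1 fell (6 and 0 without replicates 2 and 3), with Idh1, a cytosolic enzyme that makes NADPH, at 0.62.

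Of the ketone body genes 1 of 8 rose and 1 fell. For glucose uptake and glycolysis 12 of 26 rose and 3 fell, against 19.6% of all genes higher. In the pyruvate dehydrogenase and kinase list 7 of 14 rose and 3 fell. Without replicates 2 and 3 the counts were 7 and 3 for glycolysis and 4 and 3 for pyruvate dehydrogenase. Bdh1, which oxidises the ketone body 3-hydroxybutyrate, had 362, 505, 294 and 422 CPM in the labelled hearts and 100.0, 130.0, 146 and 97.1 CPM in wild type (log2 change 1.74, SE 0.27, adjusted p = 7.4e-05), while Oxct1, the next step of ketone use, was not called. Gpd1, which links glycolysis to glycerol lipids, had 531, 446, 278 and 414 CPM in the labelled hearts and 68.3, 55.7, 96.7 and 87.3 CPM in wild type (log2 change 2.48, SE 0.26, adjusted p = 1.24e-06). Neither overlapped between groups, and replicate 3 was the lowest of the labelled hearts in both. The makers of fructose 2,6-bisphosphate, the activator of glycolysis, moved apart. Pfkfb2, the heart form, had 439, 393, 267 and 306 CPM in the labelled hearts and 127, 141, 98.9 and 114 CPM in wild type (log2 change 1.53, SE 0.21, adjusted p = 1.95e-05), while Pfkfb1 changed by -1.25 and Pfkfb3 by -0.97.

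Glycogen genes fell more often than genes in general: 7 of 20 members tested fell, against 17.6% of all genes lower. Another 4 rose, a share near the 19.6% of all genes higher. Phkg1, catalytic subunit of the phosphorylase kinase that starts glycogen breakdown in muscle, had 7.46, 7.29, 8.93 and 9.47 CPM in the hearts labelled Acadl KO and 69.9, 56.3, 58.6 and 59.9 CPM in wild type (log2 change -2.85, SE 0.18, adjusted p = 5.41e-09). This fall was even across the 4 hearts, unlike the rises of the stress genes. Pygb, a glycogen phosphorylase, changed by -0.48 and the phosphatase targeting subunits Ppp1r3d and Ppp1r3b changed by -1.11 and -1.08, the Ppp1r3b call being lost without replicate 1 or 2 of the labelled hearts or replicate 2 of wild type. On the synthesis side Ugp2, which makes UDP-glucose, rose by 1.15 and glycogen synthase Gys1 by 0.81. The other catalytic subunit, Phkg2, and the muscle phosphorylase Pygm were not called.

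**Figure D2:**
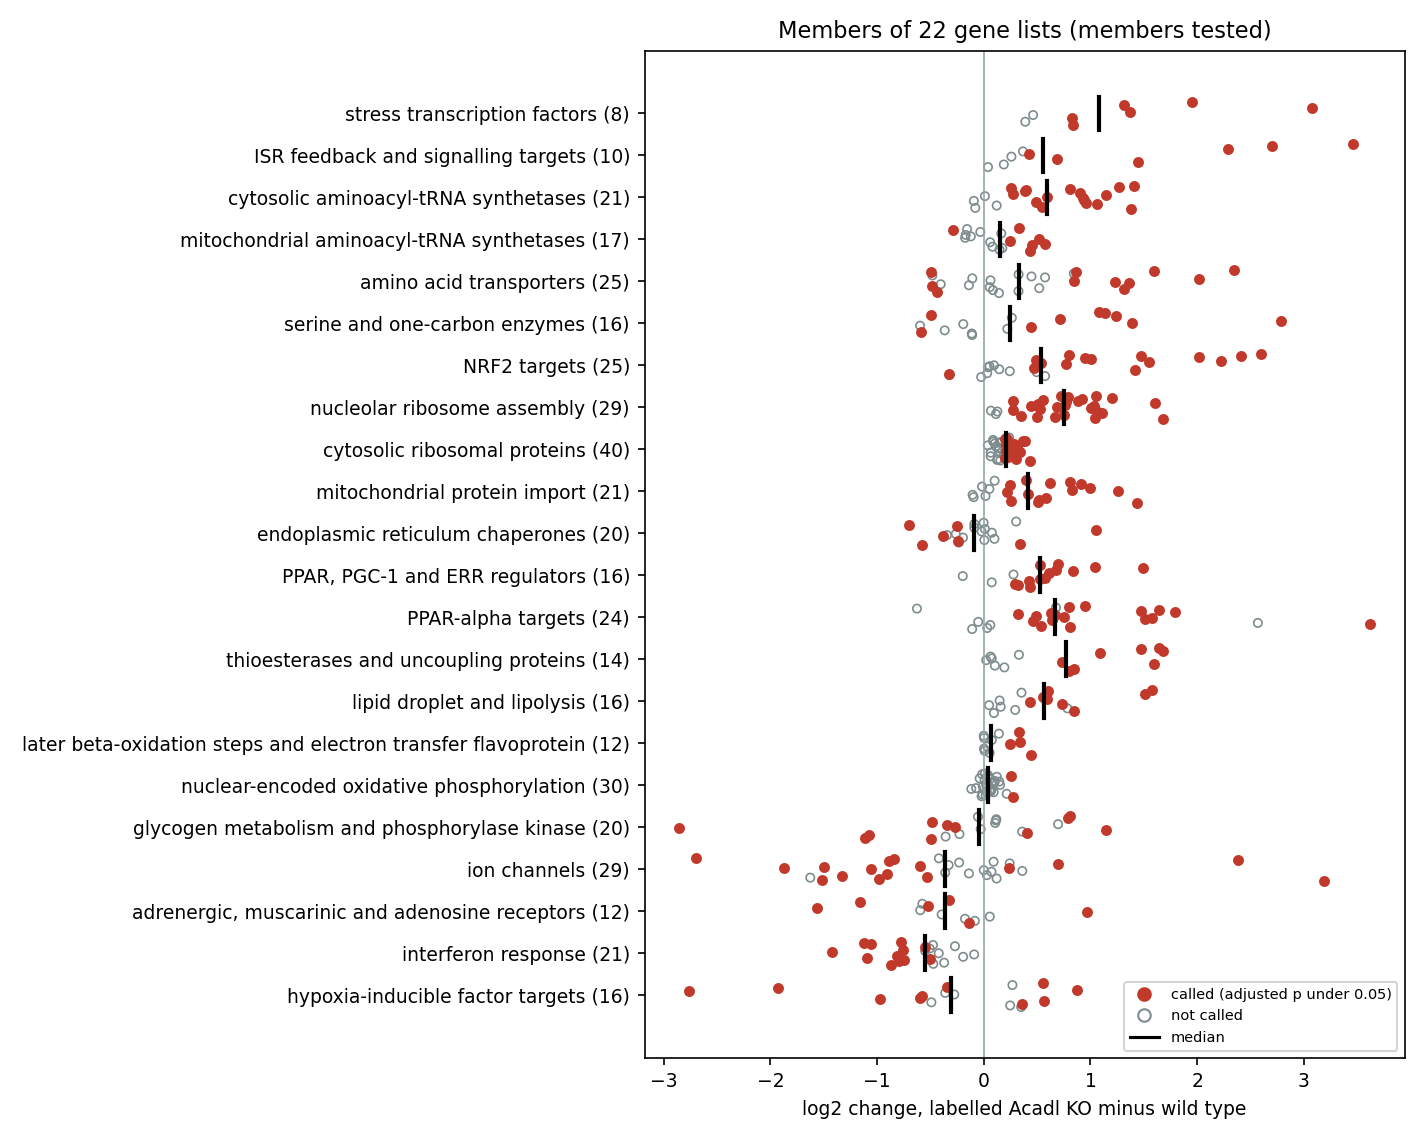
Log2 change, hearts labelled Acadl KO minus wild type, of each tested member of 22 gene lists; filled red points are called genes, open points are not called, the black bar is the list's median and the number of members stands in brackets. Most members of the stress factor, synthetase, nucleolar, import and PPAR lists lie to the right, those of oxidative phosphorylation sit near 0, and the interferon list lies to the left.

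More ion channel genes fell than rose. Of the list 4 of 29 members tested rose and 12 fell (median log2 change -0.36; without replicates 2 and 3, 3 rose and 12 fell), against 17.6% of all genes lower. Kcnj5, a subunit of the acetylcholine-gated potassium channel, had 17.3, 10.4, 28.8 and 20.7 CPM in the labelled hearts and 64.6, 74.5, 66.97 and 76.2 CPM in wild type (log2 change -1.87, SE 0.30, adjusted p = 0.000109). Its partner Kcnj3, an atrial marker, changed by -1.50, and Chrm2, the muscarinic receptor that opens this channel, had 14.4, 13.9, 19.2 and 14.3 CPM in the labelled hearts and 42.3, 42.99, 46.5 and 44.5 CPM in wild type (log2 change -1.56, SE 0.15, adjusted p = 3.39e-07). The 3 genes stood below wild type in every labelled heart. Of 8 atrial markers 2 were called lower (1 without replicates 2 and 3), and their sum was 252, 311, 279.5 and 208 CPM in the hearts labelled Acadl KO and 347 to 459 CPM in wild type. Myl7, Myl4, Sln and Nppa, the defining atrial markers, were not called (log2 changes -0.58 to -0.30), and their part in the result was not tested. The nerve and Schwann cell markers summed to 53.05, 44.5, 57.3 and 46.5 CPM in the labelled hearts and 46.9 to 58.4 CPM in wild type, with 2 of 7 called lower, among them Sox10 (-0.85), whose call was lost without any 1 of 4 libraries; their part was not tested.

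Other channel and receptor genes that fell were Kcna4 (-2.69), the calcium channel subunit Cacnb2 (-1.33) and the adrenergic receptor Adra1b (-1.16). In the other direction 2 channel genes known from other excitable tissues rose: the NMDA receptor subunit Grin2c, at 5.095 to 12.4 CPM in the hearts labelled Acadl KO and 0.669 to 2.005 CPM in wild type (log2 change 3.19), and the potassium channel Kcnc1, at 4.01 to 5.78 CPM in the labelled hearts and 0.613 to 1.41 CPM in wild type (2.38). Adora2a, an adenosine receptor, rose by 0.97, but its groups overlapped and its call was lost without replicate 2. Lrrc52, an accessory subunit of potassium channels, had 25.2, 29.6, 2.598 and 7.29 CPM in the labelled hearts and 1.18, 2.21, 1.74 and 2.13 CPM in wild type (log2 change 2.98, SE 0.69, adjusted p = 0.00229). Its replicates 1 and 2 carried the rise, and replicate 3 was just above wild type.

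Aqp4, a water channel, had the largest fall of the genes with a mean above 1 CPM. It had 10, 17, 31 and 11 reads in the hearts labelled Acadl KO and 369, 510, 485 and 665 reads in wild type, or 0.266, 0.4504, 0.782 and 0.2605 CPM against 9.05, 11.4, 9.09 and 12.7 CPM (log2 change -4.59, SE 0.32, adjusted p = 7.13e-09). B3galt2, a glycosyltransferase (-3.93), Gal3st3, a sulfotransferase (-3.14), Smim5 (-2.91), Itgb6, an integrin subunit (-2.83), and Sec14l5 (-2.80) followed, each without overlap between groups. Angpt1, a ligand of the vessel receptor TIE2, had 7.62, 5.51, 14.8 and 6.98 CPM in the labelled hearts and 58.2, 48.99, 44.6 and 50.1 CPM in wild type (log2 change -2.56, SE 0.39, adjusted p = 5.36e-05), with replicate 3 the highest of the labelled hearts.

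Contractile genes changed mostly by small amounts at high levels. Tpm1, alpha-tropomyosin, had the largest loss in CPM, at 6156, 6193, 5922 and 6336 CPM in the hearts labelled Acadl KO and 8754, 8596, 8549 and 8291 CPM in wild type (log2 change -0.47, SE 0.08, adjusted p = 8.92e-05). Ankrd1, a stretch-responsive protein of the sarcomere and nucleus, had 354, 513, 837 and 558 CPM in the labelled hearts and 2087, 1282, 2473 and 1794 CPM in wild type (log2 change -1.70, SE 0.36, adjusted p = 0.00105). The groups did not overlap in either gene. Tcap, which caps titin, changed by -1.18, Mylk3, the heart's myosin light chain kinase, by -0.95, Casq1 by -1.97, and the cardiac actin gene Actc1 by -0.54, though the last call was lost without replicate 1 of the labelled hearts or replicate 2 of wild type. Nppa and Nppb, the natriuretic peptides that mark strain, and Myh6 and Myh7 were not called. In the hypertrophy list 2 of 16 rose, Cyr61 (1.42) and Xirp1 (0.81), neither of them called without replicates 2 and 3. In the same list 4 fell, Ankrd1, Ctgf (-1.47, a call lost without replicates 2 and 3), Nfatc2 (-1.47) and Tgfb2 (-1.12).

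**Figure D3:**
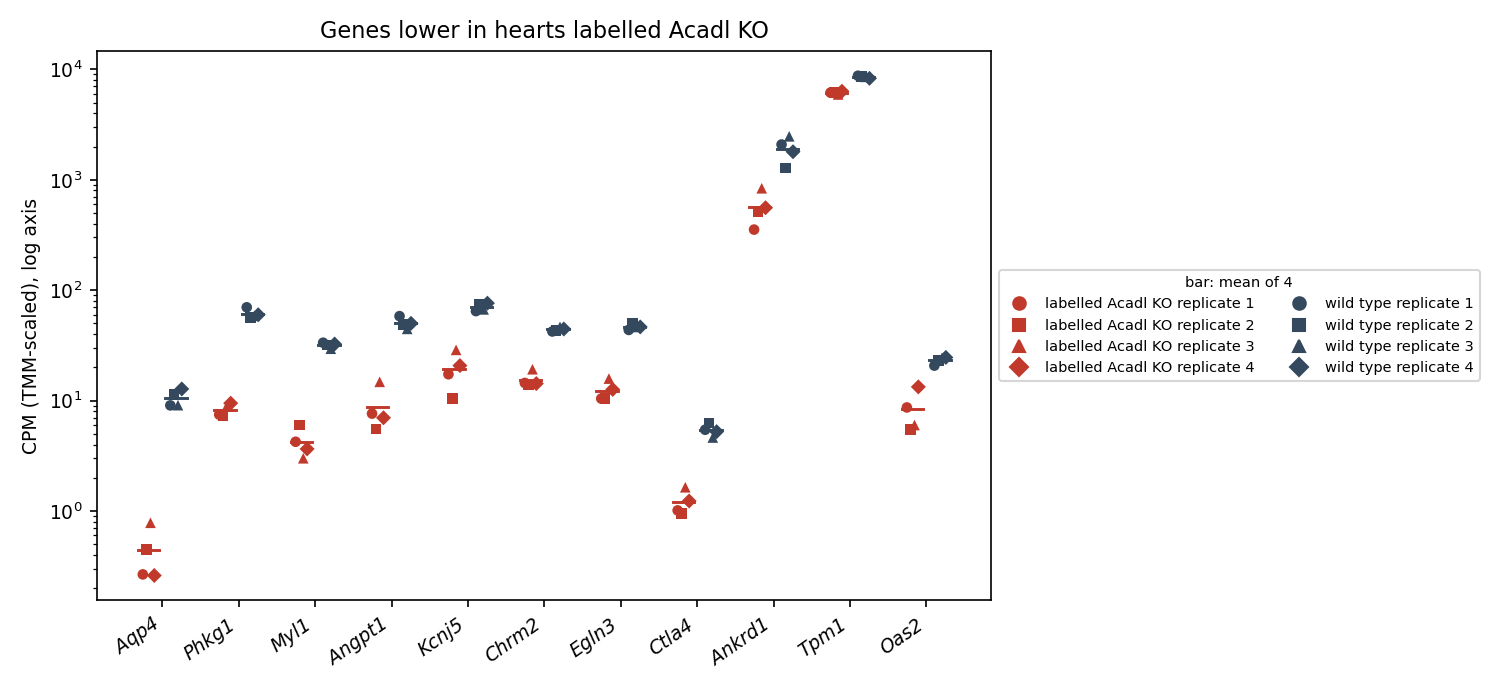
Levels of 11 genes that were lower in the hearts labelled Acadl KO (red) than in wild-type hearts (dark), in CPM on a log axis, with 1 shape per replicate and a bar at each mean. All red marks lie below all dark marks in each gene; Ctla4 was added after its values were seen.

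Ptgds, the prostaglandin D synthase, rose to 1232, 1546, 803 and 1153 CPM in the hearts labelled Acadl KO, against 201, 155, 499.8 and 319 CPM in wild type (log2 change 2.02, SE 0.41, adjusted p = 0.000758), and was among the 10 largest gains in CPM. Rbp7, a retinol-binding protein, rose by 2.73, with 47.98 to 269 CPM in the labelled hearts and 16.04 to 22.2 CPM in wild type, and Lrrc10b by 3.56. Of the hypoxia-inducible factor targets 4 of 16 rose and 6 fell (2 and 6 without replicates 2 and 3). Vegfa (0.87) was among those that rose, and among those that fell were Egln3 (-1.93), an oxygen-sensing prolyl hydroxylase, and Ankrd37 (-2.76).

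Interferon-response genes were lower: 0 of 21 members tested rose and 12 fell (median log2 change -0.55; without replicates 2 and 3, 0 rose and 6 fell). Oas2, a sensor of double-stranded RNA, had 8.66, 5.48, 6.003 and 13.3 CPM in the labelled hearts and 20.7, 23.1, 24.4 and 24.6 CPM in wild type (log2 change -1.42, SE 0.29, adjusted p = 0.000863). For Oas2, as for most of the stress genes above, replicate 4 was the labelled heart nearest to wild type. Ifit2 and Ifit3, which block translation of viral RNA and are close copies of each other, changed by -1.12 and -1.06, and Stat2, which carries the signal to the nucleus, by -0.75 (adjusted p = 0.07 without replicates 2 and 3). Of the immune cell markers, 0 of 8 macrophage markers and 0 of 5 lymphocyte markers were called. The macrophage markers summed to 236, 191, 218 and 227 CPM in the hearts labelled Acadl KO and 181 to 214 CPM in wild type. Of 18 chemokine genes 2 were called, Ccl6 (0.89) and Ccl9 (0.83), and each call was lost without any 1 of 4 libraries.

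Collagen genes were not called in the matrix list apart from Col4a2. Of that list 5 of 27 rose and 3 fell (3 and 2 without replicates 2 and 3). Lox, which cross-links collagen, rose by 1.15, a call lost without replicates 2 and 3 (adjusted p = 0.202), and Timp4, a protease inhibitor, rose by 0.97 with overlap between groups. The fibroblast, epicardial, erythroid and adipocyte lists had 0 called members. The erythroid markers nevertheless summed to 2231, 1560.4, 3876 and 2409.7 CPM in the labelled hearts and 1329 to 1815 CPM in wild type, the highest being replicate 3. Acta2, of smooth muscle, changed by -1.07 (adjusted p = 0.0864 without replicates 2 and 3), while the other 6 of 7 smooth muscle markers were not called.

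Acadl lies on chromosome 1, where the strain of origin of the flanking DNA and the Acadl label cannot be told apart on this mixed background. Of the 7 other genes tested within 1 Mb, 4 were called (57.1%) and all 4 were lower. Myl1, a skeletal myosin light chain 87.6 kb from Acadl, had 4.24, 5.99, 3.002 and 3.65 CPM in the hearts labelled Acadl KO and 33.4, 31.9, 29.5 and 32.5 CPM in wild type (log2 change -2.93, SE 0.22, adjusted p = 1.75e-08). Lancl1, 172.6 kb away, changed by -0.58 with no overlap, and Kansl1l (-0.44) and Rpe (-0.40), which overlap each other by position and can share reads, showed overlap between groups. The Kansl1l call was lost without any 1 of 5 libraries and the Rpe call without replicate 2 of either group. Of the other skeletal muscle markers 0 of 6 were called. Farther out the share called, against 37.2% of all genes, was 26.9% of 26 genes at 1 to 5 Mb, 35.2% of 91 at 5 to 10 Mb, 37.7% of 77 at 10 to 20 Mb and 38.6% of 720 beyond. Idh1 (65158616 to 65186479), Ctla4 (60909025 to 60915832) and Nop58 (59685006 to 59711510), described elsewhere, also lie within 10 Mb of Acadl. The part of flanking DNA in their changes was not tested.

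The 4 hearts labelled Acadl KO differed among themselves by programme. Among the 3095 rising genes the lowest labelled heart was replicate 4 in 1677 and replicate 3 in 1072, but replicate 1 in 165 and replicate 2 in 181. Among the 2779 falling genes the highest was replicate 3 in 1272 and replicate 4 in 967. The stress factors summed to 833, 522, 840.5 and 316 CPM in the labelled hearts, high in replicates 1 and 3, against 178 to 219 CPM in wild type. The PPAR and PGC-1 regulators summed to 2061, 2116, 1523 and 1514 CPM, high in replicates 1 and 2, against 1116 to 1183 CPM in wild type. Replicate 3 was thus at the top of the stress factors and near the bottom of the metabolic regulators. Replicate 4 is the one labelled heart from batch 1, and its part in this order was not tested; among the hearts labelled Acadl KO / Acadvl Het, replicates 4 and 5 also come from batch 1 and held 264 and 229 CPM of Atf4, against 144 CPM in this heart. For Trib3 the same 2 hearts held 77.2 and 15.1 CPM against 18.1 CPM here, and for Chac1 90.4 and 22.2 CPM against 24.7 CPM here, so 1 of the 2 was as low as this heart in Trib3 and Chac1. The 2 liver-bearing hearts, replicates 2 and 3, stood on opposite sides of this order in both programmes.

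**Figure D4:**
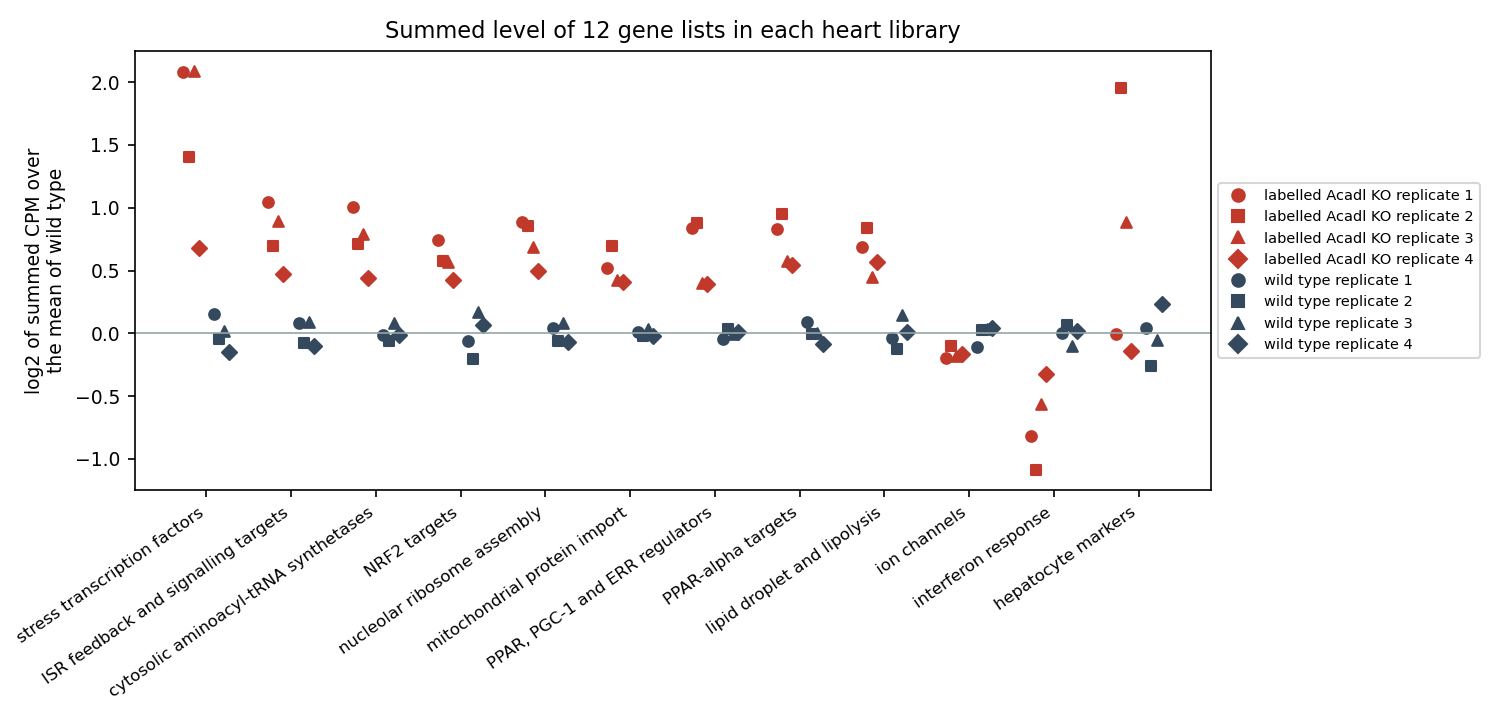
Summed CPM of 12 gene lists in each library, as log2 of its ratio to the mean of the 4 wild-type hearts; red marks are the hearts labelled Acadl KO, dark marks wild type, 1 shape per replicate. Replicates 1 and 3 are highest in the stress factors at about 2 on this axis, replicates 1 and 2 are highest in the PPAR and PGC-1 regulators, and replicates 2 and 3 stand out in the hepatocyte markers.

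A related step, Acadl KO against Acadl Het with Acadvl Het in both groups, was examined in libraries that share none with the 8, as hearts labelled Acadl KO / Acadvl Het (n = 5) minus Acadl Het / Acadvl Het (n = 3), within the same fit. There 6420 genes (40.6%) were called, 3173 higher and 3247 lower. Of the 5874 genes called against wild type, 5739 (97.7%) had the same sign in the second contrast, against 72.0% of the 9930 genes not called. Genes called in both in the same direction numbered 4250, which is 72.4% of the first list and 66.2% of the second. In opposite directions 15 were called, among them the liver genes Apoa1, Apoa4, Fabp1 and Mup3. Trib3 had 73.3, 46.2, 69.5, 77.2 and 15.1 CPM in the 5 hearts labelled Acadl KO / Acadvl Het and 7.59, 4.15 and 5.25 CPM in the 3 labelled Acadl Het / Acadvl Het (log2 change 3.32, adjusted p = 0.000312). Aqp4 had 0.0867, 0.0504, 0.3397, 0.0781 and 0.344 CPM in the hearts labelled Acadl KO / Acadvl Het and 6.78, 13.2 and 9.69 CPM in the Acadl Het / Acadvl Het hearts (log2 change -5.78, adjusted p = 8.31e-10). The groups did not overlap in either gene. Phkg1 changed by -3.57, Angpt1 by -2.92, Aars by 1.43, Srxn1 by 1.68 and Ppargc1a by 1.68 in this contrast. All 17 called cytosolic synthetases, the 6 called stress factors and the 26 called nucleolar genes were also called there in the same direction, but only 2 of the 22 called ribosomal proteins were.

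The difference between the 2 contrasts was called in 73 genes (0.462%), 71 of them above 0. Of the 25 hepatocyte markers, 15 are among the 73, and this list does not hold all liver genes. Others of the 73 followed the pattern of Alb, which changed by 3.55 against wild type and by -7.52 in the second contrast. Examples are Mup2 (3.37 and -7.97), Apob (2.41 and -7.33) and Fabp1 (4.29 and -6.45). The 2 below 0 were Ccl28 and Plod2. Alb had 0.202, 0.101, 0.121, 1.04 and 0.375 CPM in the 5 hearts labelled Acadl KO / Acadvl Het and 159, 19.8 and 39.7 CPM in the 3 Acadl Het / Acadvl Het hearts, so the liver RNA lay in the hearts labelled Acadl KO in the one contrast and in the other group in the second. Among the fuel genes named above Ehhadh was one of the 73: it rose by 1.79 against wild type and by 0.81 in the second contrast. The call was lost when replicate 1 of the Acadl Het / Acadvl Het hearts, which held much Rn45s (ribosomal RNA), was left out (adjusted p = 0.21), or with no filter on low counts (0.0808). Ehhadh is also expressed in liver. Among the hearts labelled Acadl KO / Acadvl wt its level was highest in replicate 2, which held the most liver RNA. Without replicates 2 and 3 its change against wild type was 1.74. In the Acadl Het / Acadvl Het hearts Ehhadh had 60.1, 42.6 and 41.5 CPM, highest in replicate 1, which held the most Alb. The part of liver RNA in this difference was not tested.

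**Figure D5:**
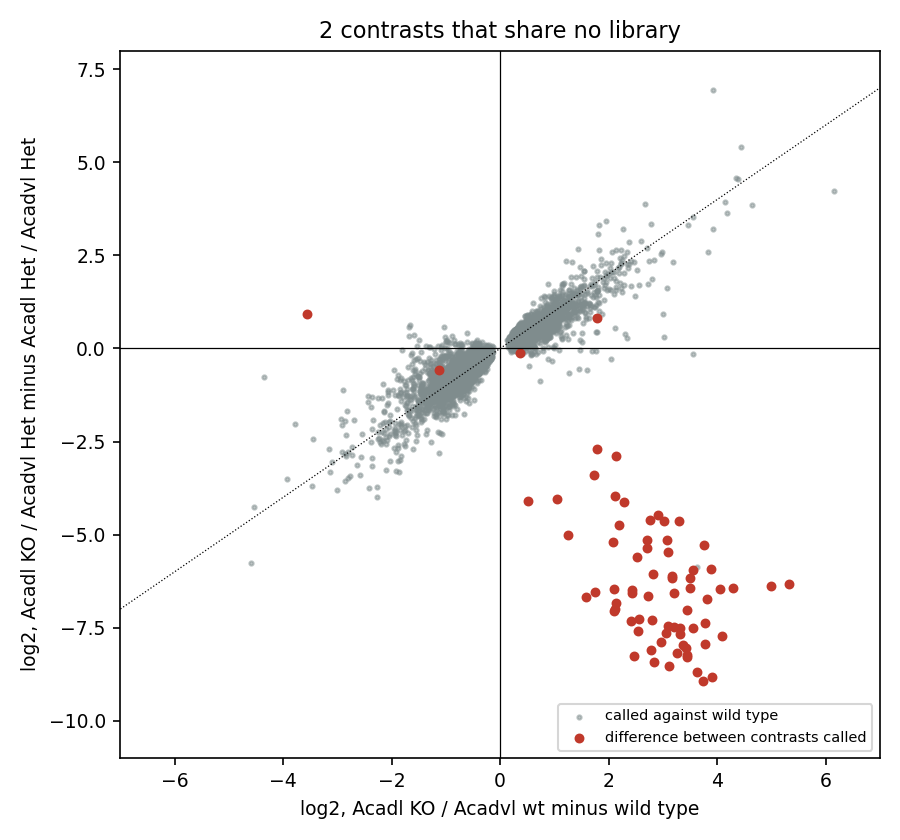
Log2 change in the contrast of Acadl KO / Acadvl wt with wild type (horizontal axis) against that of Acadl KO / Acadvl Het with Acadl Het / Acadvl Het (vertical axis), which share no library; grey points are the 5874 genes called against wild type and red points the 73 genes whose change differs between the contrasts. The grey cloud lies along the dotted line of equality, and most red points sit at the lower right.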

How the data were processed

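Heart mRNA was captured by polyA tail and sequenced as 100-nt single reads, per the labels' protocols. The authors deposited raw counts per gene; STAR 2.5.1b, featureCounts 1.5.3 and the builds GRCm38 and mm10 are named in the submitters' processing notes, and featureCounts 1.5.2 per the file headers. Per the file headers, counting ignored strand and counted a read over several genes for each, so antisense and overlapping genes cannot be told apart.

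The members and gene lists were chosen with earlier results of these data known. Counts were fitted in edgeR 4.0.16 (R 4.3.3) by the quasi-likelihood test (TMM, filterByExpr, genotype plus RNA isolation batch) on all 24 libraries; the 6 genotypes share the estimate of spread. Called means an adjusted p under 0.05, and no overlap means that all 4 CPM values of one group lie above all 4 of the other. Named genes were Acadl and Acadvl, the 15 largest log2 changes each way without overlap at a mean of at least 1 CPM, the 10 largest CPM differences each way, and list members; others are named as chosen after their values were seen. Some genes that this rule gives are not reported here. In simulated data for this comparison (15646 genes), 85% of 2-fold and 96% of 4-fold changes were recovered, and 15 calls (7.65% of calls) were false. The simulation changed 100 genes at each fold, in 1 genotype only and without a batch difference. It is thus simpler than these data, in which 5874 genes were called. Alternatives were RLE scaling, no filter, DESeq2 1.42.0, limma 3.58.1 voom, the 8 libraries alone, no batch term, each batch alone, each library left out, and the libraries with liver RNA or much Rn45s left out. Promoters are RefSeq windows; a gene with several entries counts once.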

Additional observations from a re-analysis of the deposited data

Results flagged for a closer look

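In 4 of 90 groups of 4 libraries examined, 1 library stood far from the other 3; chance does this in about 5% of groups. In the hearts labelled Acadl KO, Hmox1 was lowest in replicate 4 at 93.1 CPM, below 193 to 209 CPM in the other 3, and Chrm2 was highest in replicate 3 at 19.2 CPM, above 13.9 to 14.4 CPM in the other 3. In wild type, Atf4 was highest in replicate 1 at 79.1 CPM and Rrp12 in replicate 3 at 70.7 CPM. These libraries changed no call of the 4 genes when left out.

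The change differed between the contrast against wild type and that of Acadl KO / Acadvl Het against Acadl Het / Acadvl Het, by edgeR's test of the difference, in 4 of the genes described. For Ehhadh the difference was 0.98 on the log2 scale. For the liver genes Alb, Apoa1 and Mup3 it was 11.08, 9.03 and 11.69, with Alb at 0.107, 61.7, 13.6 and 0.213 CPM in the hearts labelled Acadl KO / Acadvl wt and 159, 19.8 and 39.7 CPM in the Acadl Het / Acadvl Het hearts. Without Acadl Het / Acadvl Het replicate 1 the adjusted p was 0.21 for Ehhadh, 0.0803 for Alb, 0.123 for Apoa1 and 0.0437 for Mup3.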

How the results depend on the processing

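The 5874 genes called became 5407 to 6162 under RLE scaling, no filter, no batch term, the 8 libraries alone, limma voom and DESeq2, and 4642 to 5830 when each library was left out. Within batch 1, with 1 heart labelled Acadl KO, 86 were called (57 higher, 29 lower) and Acadl was at 0.34, no longer past the threshold. Without the liver-bearing hearts the count lower was 1850, and without all such libraries of the series the total was 3871, with 1762 lower. The number of genes whose change differed between the 2 contrasts was 27 with no filter and 24 without the library rich in Rn45s. Of genes within 10 Mb of Acadl, 34.7% were called, 0.806% within batch 1, 25.8% without the liver-bearing hearts or without all liver-bearing libraries, and 25.8% to 35.5% with each library left out. Signs reversed for Alb (-3.06 within batch 1, -2.95 without the liver-bearing hearts and -2.96 without all liver-bearing libraries), Apoa1 (-1.32, -1.04 and -1.03) and Mup3 (-6.64, -6.09 and -6.06), and within batch 1 for Psat1 (-0.24) and Cyr61 (-0.34). The cause of these shifts was not tested; fewer libraries also enter these fits. Of 196 called genes of the text's set, 29 lost the call without some 1 library. No paired analysis was possible because the replicate numbers follow the order of deposit and the titles of the groups share no number. The alternative without all liver-bearing libraries was chosen after seeing the data.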

Other observations

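Further lists are given by their counts, against 19.6% of all genes higher and 17.6% lower; several lie near these shares. Of the thioesterases and uncoupling proteins 8 of 14 rose and 0 fell, among them Ucp3 (0.80), which sits in the inner mitochondrial membrane of muscle, and Acot12 (1.59). In autophagy 5 of 21 genes rose and 2 fell (4 and 2 without replicates 2 and 3 of the labelled hearts), the rises led by the cargo receptors Optn (1.57) and Sqstm1 (0.80) and by Gabarapl1 (1.05). Among the FOXO and atrophy genes Irs2, an adaptor of the insulin receptor, had 169, 105, 177 and 22.99 CPM in the hearts labelled Acadl KO and 18.4, 28.8, 22.2 and 14.7 CPM in wild type (log2 change 2.24, SE 0.53, adjusted p = 0.00297, edgeR). Replicate 4 lay within wild type for Irs2. Cdkn1a, a brake on the cell cycle, rose by 1.51. Of the clock genes 4 of 18 rose and 4 fell (3 and 2 without these replicates): the output factor Hlf changed by -1.49 and Per3 by -1.26, while Cry1 rose by 0.72. In branched-chain amino acid breakdown 1 of 20 rose and 5 fell (1 and 4 without them), Ppm1k, the phosphatase that activates the pathway, changing by -0.99. For cholesterol synthesis 2 of 20 genes rose and 5 fell (1 and 3 without them). Immediate early genes rose in 5 of 20 and fell in 1, but without replicates 2 and 3 of the labelled hearts in 1 and 1; Fos and Jun were not called. In glycolysis Pgam1 rose by 1.03 and Ldha, which makes lactate, changed by -0.59.

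The rule for named genes also gave Ankrd63 (-2.63), Ky (-2.54), Pirt (-2.42), Lsmem1 (-2.38) and Exoc3l4 (-2.37) among the largest falls on the log2 scale. By CPM it gave the gains of Slc25a4, the ATP carrier of the inner mitochondrial membrane (0.26), and Tacc2 (0.53), and the losses of Pln, the inhibitor of the calcium pump (-0.25), Cmya5 (-0.66), Lbh (-1.73), Fhl2 (-0.74) and Adck3 (-0.47). The calls of Slc25a4 and Pln were lost without some 1 library.

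The following 4 genes were chosen after their values were seen. Ctla4, known as an inhibitory receptor of T cells, had 1.01, 0.954, 1.64 and 1.23 CPM in the hearts labelled Acadl KO and 5.44, 6.27, 4.63 and 5.23 CPM in wild type (log2 change -2.17, SE 0.19, adjusted p = 1.39e-07, edgeR), while 0 of 5 lymphocyte markers were called and they summed to 1.01, 0.503, 1.77 and 2.53 CPM in the labelled hearts and 0.997 to 1.65 CPM in wild type. Upp1, which splits uridine, had 10.9, 16.3, 9.43 and 12.5 CPM against 2.304, 2.79, 2.75 and 2.26 CPM in wild type, and Tmem144 had 245, 292, 165 and 113 CPM against 48.8, 36.7, 49.8 and 35.8 CPM in wild type. Ifrd1 had 331, 266, 296 and 101 CPM in the labelled hearts, lowest in replicate 4, and 51.9, 48.2, 47.5 and 44.8 CPM in wild type. In each of the 4 genes the groups did not overlap. Ctla4 lies within 10 Mb of Acadl on chromosome 1, and the part of flanking DNA in its fall was not tested.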
